A study of Mus musculus with 12 samples.

Results

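The miR-30 family was followed through its guide and passenger strands in mouse gastrocnemius, the large calf muscle. The 8 arms described here were chosen by name: mmu-miR-30a-5p, mmu-miR-30b-5p, mmu-miR-30c-5p, mmu-miR-30d-5p and mmu-miR-30e-5p, which are the guide strands, and mmu-miR-30a-3p, mmu-miR-30d-3p and mmu-miR-30e-3p, which are the passenger strands. The species prefix mmu is left out below. They were 8 of 1900 mature miRNAs in the table, of which 877 had a read in at least 1 library. Small RNA came from whole muscle of C57BL/6 males with no genetic change or treatment named in the labels, 6 young mice of 6 months and 6 aged mice of 24 months, with 1 library per mouse. Whole muscle holds several cell types, so fewer cells of a type and less RNA per cell cannot be told apart. Levels are given in FPKM, reads scaled by the length of the mature miRNA and by the mapped reads of the library. This scale removes length and depth from comparisons between arms, but whether different sequences were captured equally well in library preparation was not tested, which bears on the order of the arms and on the guide to passenger folds.

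A miRNA hairpin is cut by Drosha in the nucleus and by Dicer in the cytoplasm into a short duplex, and one strand of it, the guide, is kept in an Argonaute protein while the passenger is mostly degraded. The guide finds target mRNAs mainly through its seed, bases 2 to 8 from the 5′ end, and lowers their translation and stability. In the miR-30 family the 5p arm is the usual guide, and the family is broadly expressed and abundant in heart and skeletal muscle.

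The RefSeq miRNA table for GRCm38.p6 held the mature sequence of 5 of the 8 arms. The guide strands are shown first, with the seed in capitals, because they share the same seed and differ only behind it.
miR-30a-5p: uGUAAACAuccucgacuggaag
miR-30e-5p: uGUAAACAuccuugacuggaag
miR-30c-5p: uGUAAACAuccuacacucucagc
Positions were counted from 1 at the 5′ end. The only difference of miR-30e-5p from miR-30a-5p is C13U. The first 12 bases of miR-30c-5p are also those of miR-30a-5p, and 5 of the 22 positions compared differ, all behind base 12. Among the 1679 mature miRNAs listed there, 4 had this seed, and the one outside the family by name was miR-384-5p.
miR-384-5p: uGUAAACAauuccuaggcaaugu

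The passenger strands of the miR-30a and miR-30e hairpins also share their seed, which is another one than that of the guides.
miR-30a-3p: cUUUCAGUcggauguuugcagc
miR-30e-3p: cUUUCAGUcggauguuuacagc
They differ by G18A alone. For miR-30b-5p, miR-30d-5p and miR-30d-3p only the names are given.

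The whole hairpins of miR-30a and miR-30e show where both strands lie, here with the 5p and the 3p arm in capitals, since the arm balance described further on compares these stretches.
Mir30a: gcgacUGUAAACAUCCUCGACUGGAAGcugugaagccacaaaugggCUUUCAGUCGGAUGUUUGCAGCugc
Mir30e: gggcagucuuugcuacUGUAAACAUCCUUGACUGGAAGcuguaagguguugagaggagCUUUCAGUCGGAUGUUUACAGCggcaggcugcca
On GRCm38.p6 the miR-30a hairpin lies at chr1:23272269-23272339 on the plus strand, where GENCODE lists no other gene. The nearest family hairpin, Mir30c-2, lies 19361 bases behind it at chr1:23291701-23291784, in an exon of the long non-coding RNA Gm27028. Mir30e at chr4:120772606-120772697 and Mir30c-1 at chr4:120769534-120769622, 2983 bases apart on the minus strand, both lie in an intron of Nfyc, which encodes a subunit of the transcription factor NF-Y. Mature miR-30c-5p has the same sequence from Mir30c-1 and Mir30c-2, so its reads cannot be assigned to either, and the values of both copies were summed.

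Depth was uneven. Young libraries held between 198733 and 6239342 estimated miRNA reads and aged libraries between 123042 and 7515016, and 1 read of 22 nucleotides was worth 5.86 to 377 FPKM. Depth also went with age, with 5 of 6 young libraries under 600000 reads and 5 of 6 aged libraries above 1200000. The 6 skeletal muscle markers, such as miR-1a-3p and miR-133a-3p, all had reads in at least 1 library, and 4 had them in every library. They summed to 4594296 to 7378806 FPKM in young and 4497092 to 5333858 in aged muscle. Most of this was miR-133a-3p, at 4223478 to 7152420 FPKM in the 12 libraries. The liver miRNA miR-122-5p had at most 1 read. The summed markers of red blood cells, white blood cells and endothelium overlapped between the ages. Those of red blood cells (3 of 3 listed with reads) had 5828 to 10486 FPKM in young and 3022 to 10507 in aged muscle. Those of white blood cells (2 of 4 matched by name, miR-223-3p and miR-150-5p) had 3975 to 7068 and 2976 to 9796 FPKM. The other listed names were the arms of miR-142a. The table held both arms of miR-142, without the letter, and they were not in the sum. Those of endothelium (2 of 2) had 307743 to 455685 and 336491 to 382329 FPKM. On the log2 scale over the 12 libraries, the summed markers were set beside the summed guide strands. Pearson r was -0.59 for red blood cells, 0.03 for white blood cells, 0.61 for endothelium and 0.21 for skeletal muscle. It was 0.55 for fibroblasts (miR-199a and miR-214) and -0.36 for smooth muscle (miR-145a). The part of these cells in the miR-30 values was not tested.

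Together the 8 arms made up 5.60% ± 0.686 of all summed miRNA FPKM in young muscle and 5.85% ± 0.319 in aged muscle (SD, n = 6 each). The 5 guide strands summed to 21.15 ± 0.158 on the log2 FPKM scale in young and 21.25 ± 0.0857 in aged muscle, a difference of 0.11. One arm, miR-30a-5p, carried most of this pool. Without it the guide strands summed to 19.20 ± 0.269 in young and 19.05 ± 0.0979 in aged muscle, a difference of -0.15. miR-30a-5p had the 9th highest mean FPKM among the entries of the table at both ages, and every other arm of the family lay well below it. Ranks and shares count all entries, also any that repeat the reads of another, such as miR-30f, described below. The 2 arms of miR-486, for example, kept a log2 ratio between -0.06 and -0.02 in all libraries. Whether they repeat the same reads was not tested.

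The order of the 8 arms was the same in 12 of 12 libraries, so every neighbour in it differed in the same direction in each mouse. miR-30a-5p stood 7.69-fold (geometric mean, lowest 6.11 and highest 9.92) above miR-30d-5p. The next steps were small. miR-30d-5p exceeded miR-30e-5p 1.30-fold, from 1.06-fold to 1.59-fold, which was the narrowest gap, and miR-30e-5p exceeded miR-30c-5p 1.46-fold. A passenger came next, because miR-30c-5p was 2.69-fold above miR-30a-3p, which in turn was 1.97-fold above the guide miR-30b-5p. The last places were taken by miR-30e-3p, 1.75-fold below miR-30b-5p, and miR-30d-3p, 11.0-fold below miR-30e-3p. The plot of levels by library shows these steps.

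**Figure D1:**
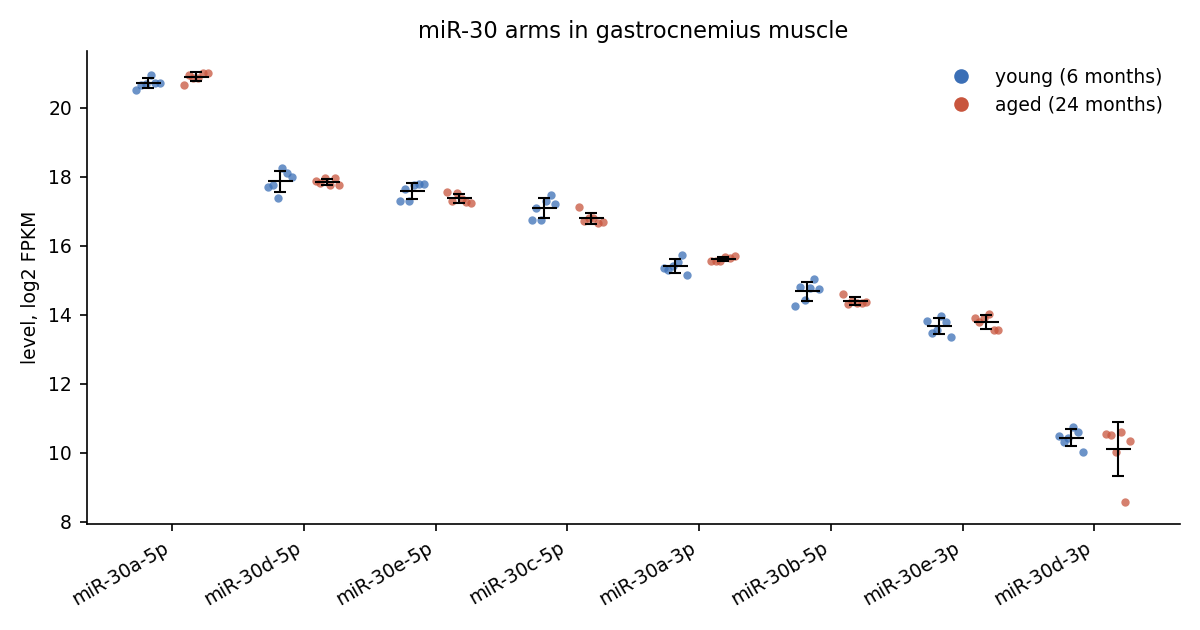
Level of each of the 8 miR-30 arms as log2 FPKM, ordered by level, with 1 point per library (6 young, 6 aged) and the mean and SD as bars. miR-30a-5p sat between 20.52 and 21.02 in all libraries, and 1 aged library of miR-30d-3p lay at 8.56, below the other 11.

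None of the 8 arms passed the test between the ages (limma on all 482 miRNAs tested, Benjamini-Hochberg adjusted p from 0.287 to 0.990). Over all miRNAs tested, 2.90% passed. At an unadjusted p under 0.05 there were 2 of the 8 arms, miR-30b-5p and miR-30c-5p, both lower in aged muscle, beside 12.9% of all miRNAs in either direction and 7.26% lower. An exact permutation test of each arm gave 4 of 8 at an unadjusted p under 0.05, beside 13.7% of all miRNAs tested. After adjustment it gave 0 of 8 and 0.00% of all, a count nearly set by the design, since the smallest p that 6 against 6 libraries allow is 0.00216 and at least 21 of the 482 miRNAs would have to pass together. The young and aged libraries did not separate for any of the 8, against 2.70% of all miRNAs tested. The log2 difference, aged minus young, was above 0 for 3 arms and below 0 for 5, with a median of -0.12 against 0.07 over all miRNAs tested.

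The leading guide, miR-30a-5p, ran in log2 FPKM from 20.52 over a median of 20.71 to 20.95 in young muscle and from 20.66 over 20.91 to 21.02 in aged muscle. The ages overlapped, although 2 aged libraries were above every young one. The difference was 0.19 (SE 0.12, 95% interval -0.07 to 0.44, limma adjusted p = 0.529). Its passenger, miR-30a-3p, comes from the other side of the same hairpin. It ran from 15.15 over 15.38 to 15.74 in young and from 15.55 over 15.61 to 15.69 in aged muscle, so that 5 of 6 young libraries lay below all aged ones while the remaining young library was the highest of the 12. The log2 difference was 0.20 (SE 0.11, limma adjusted p = 0.454).

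The guide miR-30c-5p, which is made from both Mir30c hairpins, ran from 16.75 over 17.15 to 17.46 in young and from 16.66 over 16.75 to 17.11 in aged muscle. The ages overlapped in the middle, with 3 young libraries above all aged ones and 3 aged libraries below all young ones. The log2 difference was -0.30 (SE 0.13, 95% interval -0.56 to -0.03, limma adjusted p = 0.287). Under median-of-ratios scaling of the libraries it was -0.33 with a limma adjusted p of 0.0448, past the threshold. Under quantile normalization it was -0.15 (limma adjusted p = 0.595), so the call depended on the scaling.

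The guide miR-30b-5p, the rarest of the 5, ran from 14.25 over 14.77 to 15.02 in young and from 14.31 over 14.36 to 14.61 in aged muscle. The lowest library of all was a young one, although 4 young libraries were above every aged one. The log2 difference was -0.28 (SE 0.13, 95% interval -0.54 to -0.01, limma adjusted p = 0.348). Under quantile normalization it was -0.36 with a limma adjusted p of 0.0399, again past the threshold. Under median-of-ratios scaling it was -0.30 (limma adjusted p = 0.0836), not past it.

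The guide miR-30e-5p, which differs from miR-30a-5p by 1 base, ran from 17.30 over 17.70 to 17.80 in young and from 17.24 over 17.32 to 17.55 in aged muscle. The ages overlapped, with 4 young libraries above all aged ones. The log2 difference was -0.22 (SE 0.12, limma adjusted p = 0.422), of the other sign than that of miR-30a-5p in the same fit. Under quantile normalization both signs turned, to -0.08 for miR-30a-5p and 0.02 for miR-30e-5p. The passenger of the miR-30e hairpin, miR-30e-3p, ran from 13.35 over 13.68 to 13.97 in young and from 13.55 over 13.85 to 14.02 in aged muscle, with wide overlap. Its log2 difference was 0.13 (SE 0.13, limma adjusted p = 0.729).

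The guide miR-30d-5p had the smallest difference of the 8 arms between the ages. It ran from 17.38 over 17.88 to 18.25 in young and from 17.76 over 17.85 to 17.95 in aged muscle, the aged range lying inside the young one. The log2 difference was -0.01 (SE 0.13, 95% interval -0.27 to 0.25, limma adjusted p = 0.990). Its passenger miR-30d-3p was the rarest of the 8 arms, at 10.03 over 10.45 to 10.74 in young and 8.56 over 10.43 to 10.60 in aged muscle. The value of 8.56, in aged replicate 5, rested on 1 read, for which counting error alone allows 0.0253 to 5.57 reads (exact Poisson 95% interval) or 9.56 to 2103 FPKM. The log2 difference was -0.31 with that library (SE 0.30, limma adjusted p = 0.711) and -0.02 without it.

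**Figure D2:**
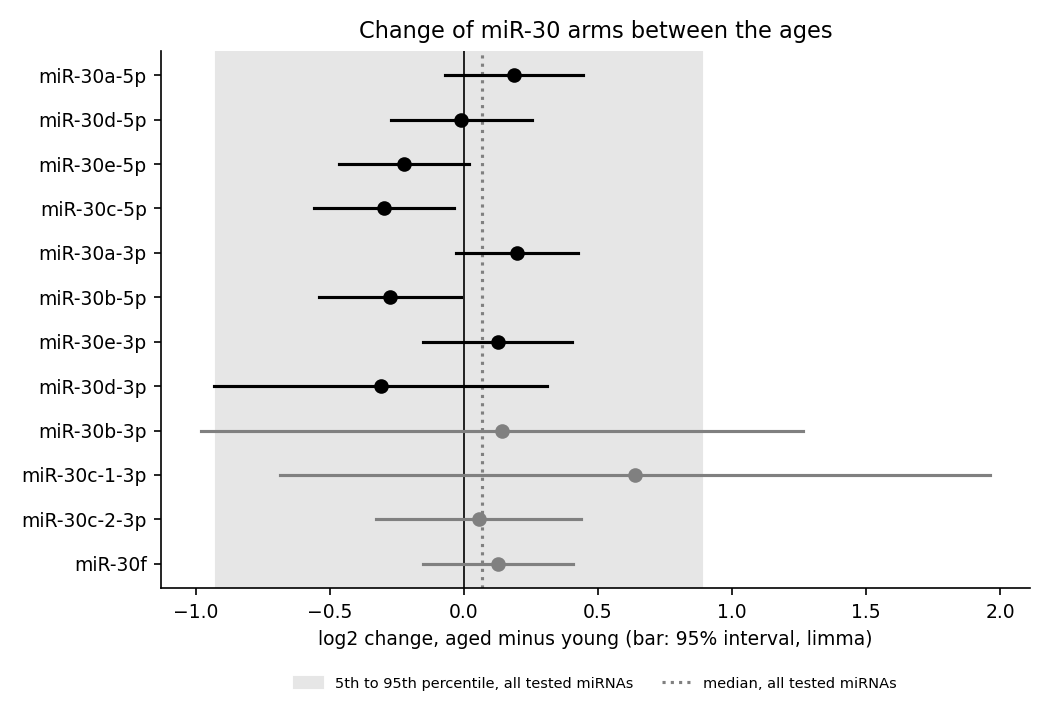
Log2 difference, aged minus young, of the miR-30 arms with the 95% interval of limma, the 8 arms in black and other entries named miR-30 in grey. The points of the 8 arms lie between -0.31 and 0.20, inside the grey band that spans the 5th to 95th percentile of the 482 miRNAs tested.

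Depth moved with age, and its values stand beside these differences. With the log2 of estimated reads as a covariate, the log2 difference was -0.32 for miR-30c-5p, -0.29 for miR-30b-5p, -0.27 for miR-30e-5p and 0.21 for miR-30a-5p. In the shallowest library, aged replicate 5, the guide strands still had from 55.0 estimated reads (miR-30b-5p) to 5634 (miR-30a-5p), and the passengers had 135 (miR-30a-3p), 32.0 (miR-30e-3p) and 1.

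The make-up of the guide pool was then compared by ratios within each library, which do not change with a factor applied to the whole library. Quantile normalization is not such a factor, and the ratios were not computed under it. There the log2 differences of the arms were -0.08 for miR-30a-5p, -0.15 for miR-30c-5p, -0.36 for miR-30b-5p, 0.02 for miR-30e-5p and -0.02 for miR-30d-5p. The gap between the log2 differences of miR-30a-5p and miR-30c-5p was thus smaller. The log2 difference of miR-30e-5p no longer lay below that of miR-30a-5p. miR-30a-5p made up 73.9% ± 2.68 of the 5 summed guide strands in young and 78.2% ± 2.70 in aged muscle. The shares of the others were 10.4% ± 1.33 and 9.52% ± 0.828 for miR-30d-5p, 8.57% ± 0.819 and 6.85% ± 1.01 for miR-30e-5p, 6.05% ± 0.779 and 4.60% ± 0.868 for miR-30c-5p, and 1.13% ± 0.157 and 0.869% ± 0.122 for miR-30b-5p (SD, n = 6 each). Each of these 4 shares was lower on average in aged muscle, and each overlapped between the ages.

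**Figure D3:**
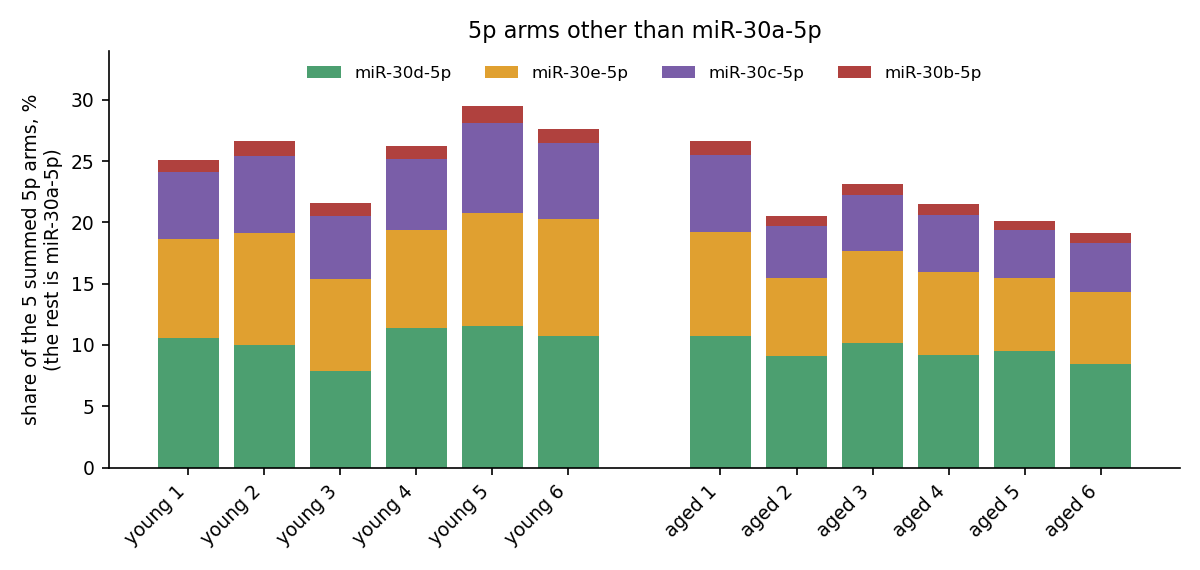
Share in percent of the 5 summed guide strands taken by miR-30d-5p, miR-30e-5p, miR-30c-5p and miR-30b-5p in each of the 12 libraries, stacked, the rest being miR-30a-5p. Aged replicate 1 looks like the young libraries, with miR-30a-5p at 73.4%, and young replicate 3, with miR-30a-5p at 78.5%, like the aged ones.

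Of the 10 pairs of guide strands, 6 differed in log2 ratio between the ages at an unadjusted p under 0.05 (two-sided exact permutation over all splits of 6 against 6). The pairs share arms and libraries and are not independent. Of all 19701 pairs of the 199 miRNAs that had reads in every library and a mean of at least 482 FPKM, 24.6% did so. After Benjamini-Hochberg adjustment over all those pairs, 0 of the 10 passed, against 9.48% of all pairs.

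The widest differences had miR-30a-5p on top. Its ratio to miR-30c-5p ran from 9.58 over a median of 12.2 to 15.3 in young and from 11.7 over 17.8 to 20.5 in aged muscle, and 5 of 6 aged libraries were above every young one. That was a 1.40-fold higher ratio in aged muscle (log2 difference 0.48, exact permutation p = 0.0152, adjusted over all pairs 0.0979). Against miR-30b-5p the ratio ran from 52.0 over 67.6 to 77.2 in young and from 66.3 over 96.0 to 103 in aged muscle, again with 5 of 6 aged libraries on top (1.38-fold, exact permutation p = 0.0108, adjusted 0.0792). Against miR-30e-5p, the guide with 1 base of difference, it ran from 7.62 over 8.59 to 10.5 in young and from 8.63 over 11.97 to 13.7 in aged muscle (1.33-fold, exact permutation p = 0.0152, adjusted 0.0979).

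The ratio of miR-30a-5p to miR-30d-5p overlapped widely, at 6.11 over 6.89 to 9.92 in young and 6.82 over 8.49 to 9.58 in aged muscle (log2 difference 0.20, exact permutation p = 0.147). Among the others, miR-30c-5p relative to miR-30d-5p was 0.587 ± 0.0610 in young and 0.482 ± 0.0594 in aged muscle (exact permutation p = 0.0152, adjusted 0.0979). The pairs miR-30d-5p to miR-30e-5p (log2 difference 0.21, exact permutation p = 0.0303) and miR-30b-5p to miR-30d-5p (-0.27, exact permutation p = 0.0368) made up the 6.

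Aged replicate 1 lay inside the young range in all 4 ratios with miR-30a-5p on top. Without that library the log2 difference was 0.60 for the ratio to miR-30c-5p, 0.55 to miR-30b-5p and 0.49 to miR-30e-5p. When each of the 12 libraries was left out in turn, the pairs of miR-30a-5p with miR-30b-5p, miR-30c-5p and miR-30e-5p, and of miR-30c-5p with miR-30d-5p, stayed at an unadjusted exact permutation p under 0.05 in 12 of 12 cases, while miR-30d-5p with miR-30e-5p did in 6 and miR-30b-5p with miR-30d-5p in 4. In the deepest library of each age, young replicate 6 and aged replicate 3, the ratio of miR-30a-5p was 11.6 and 16.9 to miR-30c-5p, 63.1 and 88.0 to miR-30b-5p, and 7.62 and 10.2 to miR-30e-5p.

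**Figure D4:**
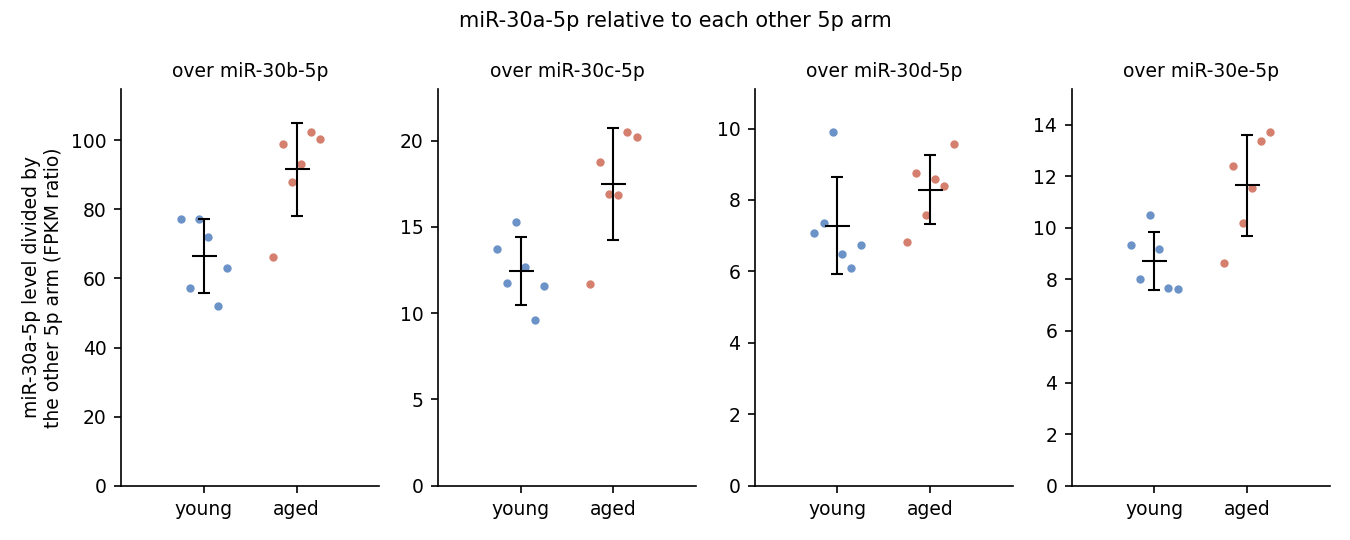
Ratio of the FPKM of miR-30a-5p to that of each other guide strand, with 1 point per library and the mean and SD as bars, on axes that start at 0. The aged libraries lie higher on average in all 4 panels, with overlap in each, and aged replicate 1 is the lowest aged point in all 4.

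The guides miR-30b-5p, miR-30c-5p and miR-30e-5p kept nearly fixed proportions to each other. The log2 ratio of miR-30b-5p to miR-30c-5p had a spread within an age of only 0.0821 (SD), that of miR-30c-5p to miR-30e-5p 0.0992, and that of miR-30b-5p to miR-30e-5p 0.102, where the median over the 19701 pairs of abundant miRNAs was 0.494. Their ratios differed by -0.07 to 0.02 on the log2 scale between the ages, with an exact permutation p of 0.645, 0.238 and 0.390. miR-30a-5p was looser, with SDs of 0.213 to 0.266 against the other guides. For miR-30e-5p, which differs from miR-30a-5p by 1 base and from miR-30c-5p by 5, the SD was 0.223 to the former and 0.0992 to the latter. The median of 0.494 covers miRNAs down to a mean of 482 FPKM, where 1 read was worth up to 377 FPKM. The part of counting error in it was not tested. Steady ratios were also found outside the family, by a search over the 216 miRNAs with reads in every library for the smallest SD. The steadiest partner was miR-16-5p for miR-30d-5p (SD 0.0851 over all 12 libraries) and miR-26b-5p for miR-30a-5p (0.146). For miR-30b-5p it was miR-30c-5p, and for miR-30c-5p and miR-30e-5p it was miR-30b-5p. Partners picked by such a search, with an SD over both ages, are not like the family pairs above, which were set beforehand and measured within an age.

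Guide and passenger were next compared within a hairpin, as the log2 ratio of the 5p to the 3p arm with the pseudocount of 48.2 FPKM in both. In the miR-30a hairpin the guide exceeded the passenger 39.3-fold in young and 39.0-fold in aged muscle. The log2 ratio lay between 4.98 and 5.58 in young libraries and between 5.09 and 5.39 in aged ones, a difference of -0.01 (SE 0.15, 95% interval -0.34 to 0.32, limma adjusted p = 0.971 over 130 hairpins). The passenger thus made up 2.50% ± 0.359 of both arms in young and 2.50% ± 0.202 in aged muscle.

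The miR-30e hairpin had the highest passenger share of the 3. There the guide exceeded the passenger 15.2-fold in young and 11.96-fold in aged muscle, and the log2 ratio lay between 3.49 and 4.44 in young libraries and between 3.32 and 3.71 in aged ones. The difference of -0.35 did not pass the test (SE 0.18, 95% interval -0.75 to 0.05, limma adjusted p = 0.427). The passenger made up 6.25% ± 1.35 of both arms in young and 7.72% ± 0.765 in aged muscle, with overlap. The values of miR-30e-3p were in 11 of 12 libraries also those of miR-30f on the opposite strand, described below. This limit holds for the passenger share and the arm ratio of miR-30e.

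In the miR-30d hairpin the guide exceeded the passenger 167-fold in young and 206-fold in aged muscle. The log2 difference of 0.30 (SE 0.35, limma adjusted p = 0.661) rested on the single read in aged replicate 5 and was -0.01 without that library. None of the 3 hairpins passed the test, where 0.769% of the 130 hairpins did, and none had an unadjusted p under 0.05, where 13.1% did.

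**Figure D5:**
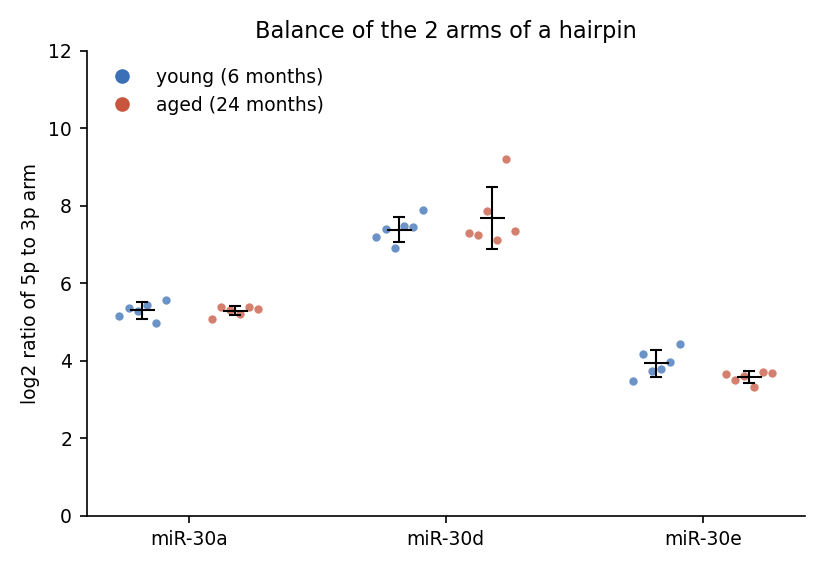
Log2 ratio of the 5p to the 3p arm in the miR-30a, miR-30d and miR-30e hairpins, with 1 point per library and the mean and SD as bars. The miR-30a ratios stay between 4.98 and 5.58 in all libraries, and the highest point of miR-30d, at 9.22, is aged replicate 5.

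The table held 4 other entries named miR-30. The passengers of the Mir30c hairpins differ by 3 bases and can be told apart.
miR-30c-2-3p: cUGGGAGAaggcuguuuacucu
miR-30c-1-3p: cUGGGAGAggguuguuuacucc
miR-30c-2-3p had reads in all libraries, with 2593 ± 532.5 FPKM in young and 2657 ± 213 in aged muscle, while miR-30c-1-3p had 154 ± 156 and 223 ± 120 FPKM and reads in 4 of 6 young and 5 of 6 aged libraries. Their log2 differences were 0.06 and 0.64 (limma adjusted p = 0.944 and 0.727), the second from 47.0 reads in young and 86.9 in aged muscle in all. miR-30b-3p had 15.0 and 32.0 reads in all (log2 difference 0.14, limma adjusted p = 0.951). miR-384-5p, with the seed of the guides, had at most 3.00 reads in any library, and no fold change is given.

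The entry miR-30f lies on the opposite strand of the miR-30e hairpin, at chr4:120772621-120772642 on the plus strand, and 19 of its bases face miR-30e-3p.
miR-30f: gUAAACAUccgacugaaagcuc
Its deposited value equalled that of miR-30e-3p in 11 of 12 libraries and differed by 0.01 on the log2 scale in the other. The values of the 2 entries were therefore not separate measurements, and which strand the reads came from cannot be told from these values.

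The miRNAs whose pattern over the 12 libraries was most like the summed guide strands, among 201 with a mean of at least 482 FPKM, were miR-23a-3p (Pearson r = 0.850), miR-26b-5p (0.809), miR-146a-5p (0.753), miR-301a-3p (0.728) and miR-16-5p (0.716). The median over the 201 was 0.0668. These values describe 12 libraries that share depth, scaling and age with the sum, and without the 2 libraries farthest from its median, young replicates 1 and 3, they were 0.701, 0.566, 0.606, 0.637 and 0.427. By FPKM the sum is mostly miR-30a-5p, but the likeness to that arm alone was not computed. Over the 12 libraries the Pearson r of miR-30a-5p was -0.25 with miR-30b-5p, -0.31 with miR-30c-5p, -0.26 with miR-30e-5p and 0.32 with miR-30d-5p. These values pool both ages. With the mean of each age removed, r was 0.15 with miR-30b-5p, 0.05 with miR-30c-5p, 0.10 with miR-30e-5p and 0.42 with miR-30d-5p.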

How the data were processed

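Small RNA of 12 gastrocnemius libraries was sequenced. Per the study's methods, the authors removed adaptors, aligned the reads with BWA (default settings, build mm10) and derived FPKM for the mature miRNAs of miRBase. The submitters' processing notes also name TopHat2. The deposited values are log2 of FPKM to 2 decimals, and 0 stands for no read. Whether counting used strand is not given in the sources used here. The log was undone and genomic copies of 1 miRNA were summed. Reads were estimated from the lowest steps of each library, taking the commonest for 1 read of 22 nucleotides. Of 3223 values below 25 reads, 99.2% fell on a whole read within 0.15. Intervals on reads cover counting error only, and a difference in a rare arm was limited by depth.

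Levels were tested as log2(FPKM + 48.2), the pseudocount being each library's lowest non-zero value, taken at its median, so fold changes of rare arms are understated. The 482 miRNAs above 0 in at least 5 of 12 libraries, among them all 8 arms, went into a limma fit (limma 3.58.1, R 4.3.3, trend, no covariate, two-sided, Benjamini-Hochberg, threshold 0.05). Arm ratios of 130 hairpins were fitted likewise. Ratios between guide strands were compared by exact permutation with SciPy 1.17.1, NumPy 2.4.6, pandas 2.3.3 and Python 3.11.15. Simulated data were used to check the fit (10 draws of 877 miRNAs, 200 of them changed by 1.5 log2 units). Of the changed miRNAs that passed the filter, 93.3% of abundant and 23.1% of rare ones were called, and 2.38% of calls were false. Smaller changes, such as the differences of the 8 arms, were not simulated. Named were the 8 arms, other miR-30 entries, miRNAs with the guides' seed and the 5 most like the summed guides. Pseudocount, filter, scaling, test, depth, copies, block and left-out libraries were varied. Groups came from the sample labels. Members and lists were chosen with earlier results of these data known.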

Additional observations from a re-analysis of the deposited data

Results flagged for a closer look

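Each of the 8 arms and 3 arm ratios was examined for a library far from the rest of its age, in 22 groups of 6 libraries, by Dixon's ratio. Chance alone flags about 1 in 20 groups. Aged replicate 1 was high for miR-30b-5p, at 14.61 on the log2(FPKM + 48.2) scale where the other 5 aged libraries had 14.31 to 14.41, and for miR-30c-5p, at 17.11 against 16.66 to 16.80. Aged replicate 5 was low for miR-30d-3p, at 8.73 against 10.09 to 10.64, and correspondingly high for the log2 ratio of the miR-30d arms, at 9.22 against 7.13 to 7.86. This library was the shallowest, and its miR-30d-3p value rested on 1 read.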

How the results depend on the processing

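The count of miR-30 arms past the limma threshold, 0 of 8, became 1 under quantile normalization (miR-30b-5p) and 1 under median-of-ratios scaling (miR-30c-5p), and stayed 0 in every fit with a library left out. The count over all 482 miRNAs, 14, was 6 with a pseudocount of 1 FPKM, 7 without a filter, 8 with a filter on the mean, 8 with depth as a covariate, 6 with the deposited zeros kept, and 6 to 16 with 1 library left out. By exact permutation it was 0, and there at least 21 miRNAs would have to pass together, so this count says little about stability. The count of hairpins with a changed arm ratio, 1 of 130, was 0 with a pseudocount of 1 FPKM, 3 with 10 times the pseudocount, 2 with a filter on the mean, 0 without the trend, 0 by exact permutation (where at least 6 would have to pass together), and 0 to 4 with 1 library left out. The causes of the other moves were not tested. The 6 of 10 guide pairs at an unadjusted p under 0.05 were 4 to 6 with 1 library left out and 0 after adjustment over all pairs of abundant miRNAs, an alternative chosen after seeing the data.

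Quantile normalization reversed miR-30a-5p to -0.0821 and miR-30e-5p to 0.0173. Arm ratios, guide pairs and the guide sum were not computed under it. Leaving out 1 library moved the log2 difference of miR-30d-5p between -0.107 and 0.067, of the miR-30a arm ratio between -0.0751 and 0.0448, and of the miR-30d arm ratio between -0.0058 and 0.4124. The other alternatives turned no sign of an arm, an arm ratio, a guide pair or the guide sum.

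The labels give both ages the same replicate numbers, but same-numbered libraries did not deviate together (correlations of -0.09 to 0.09, and 0 of 6 libraries correlated best with their own number). With the replicate number as a block, 14 miRNAs, 0 of the 8 arms, 2 hairpins and 0 of the 10 guide pairs passed. The smallest p of the 10 was 0.0938, by an exact test that flips the signs of the differences between same-numbered libraries. There a guide pair can reach a p under 0.05 only if all 6 differences have the same sign, so this count of 0 says little about stability.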
